A study of Homo sapiens with 8 samples.

Results

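The 7 genes described here are DCX, NCAM1, NRCAM, PRPH, SYT4, SCG2 and NDN, neuronal, filament and secretory-granule genes taken from a list of 7, all of which were named among the 14884 genes measured. A gene with several probe sets was represented by the one brightest on average, but each of the 7 had 1 named probe set, so this rule chose nothing here. The samples are A673 and SK-ES1, established human Ewing sarcoma cell lines, a bone and soft tissue tumour driven by a fusion of EWSR1 with FLI1 or a related factor. Cells of either line carried shRING1B, a short hairpin RNA against the Polycomb ubiquitin ligase RING1B, or shGFP, a hairpin against green fluorescent protein that served as the control. This gives 4 groups of 2 arrays, namely A673 shGFP, A673 shRING1B, SK-ES1 shGFP and SK-ES1 shRING1B. All 4 groups express a hairpin, no sample without one was used here, and each line stands for 1 tumour. Nothing in the labels ties the replicate arrays to separate cultures, so p-values reflect array-to-array spread that may be purely technical. The genes were chosen by earlier results of these same arrays: DCX and NCAM1 were known to be lower in A673 and SYT4 and SCG2 in SK-ES1, and what led to the other 3 is not recorded. The changes that could have led to their choice are therefore given as descriptions without p-values.

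Neurons and neuroendocrine cells share a set of genes for a polarised shape and for regulated release of peptides. DCX (doublecortin) binds microtubules in migrating young neurons, PRPH (peripherin) forms intermediate filaments of peripheral neurons, and NCAM1 and NRCAM are immunoglobulin-domain adhesion molecules of axons. SCG2 (secretogranin II) is a cargo protein of dense-core granules, which store peptides until calcium triggers their release, and SYT4 is a synaptotagmin carried on such vesicles. NDN (necdin) is a growth-restraining protein of the MAGE family, expressed from the paternal copy of the imprinted Prader-Willi region and abundant in postmitotic neurons. Ewing sarcoma cells show limited neural features, and Polycomb complexes are best known for holding developmental genes silent at promoters rich in CpG dinucleotides.

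The promoters of 4 members that moved are shown to let their CpG content be seen, since CpG-rich promoters are the usual sites of Polycomb binding. Each runs 5′ to 3′ on the gene's own strand from 250 bases before to 50 after the start, from RefSeq's table on GRCh38.p14, with CpG dinucleotides in capitals. NDN lies at chr15:23687256-23687555 (minus strand), PRPH at chr12:49294897-49295196 (plus strand), SYT4 at chr18:43277441-43277740 (minus strand) and the first of 3 listed DCX starts at chrX:111412143-111412442 (minus strand).
NDN: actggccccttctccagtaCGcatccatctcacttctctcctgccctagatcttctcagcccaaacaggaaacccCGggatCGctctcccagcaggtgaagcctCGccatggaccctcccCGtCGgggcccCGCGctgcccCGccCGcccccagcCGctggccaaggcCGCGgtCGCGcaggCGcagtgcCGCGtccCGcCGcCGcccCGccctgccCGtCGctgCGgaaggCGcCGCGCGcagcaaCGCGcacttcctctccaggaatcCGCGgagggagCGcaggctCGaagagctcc
PRPH: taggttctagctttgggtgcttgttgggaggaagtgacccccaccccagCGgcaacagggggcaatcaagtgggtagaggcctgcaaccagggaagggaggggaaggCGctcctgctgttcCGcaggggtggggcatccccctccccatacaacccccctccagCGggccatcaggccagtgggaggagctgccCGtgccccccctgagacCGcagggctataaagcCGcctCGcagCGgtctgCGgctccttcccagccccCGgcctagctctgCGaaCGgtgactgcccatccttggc
SYT4: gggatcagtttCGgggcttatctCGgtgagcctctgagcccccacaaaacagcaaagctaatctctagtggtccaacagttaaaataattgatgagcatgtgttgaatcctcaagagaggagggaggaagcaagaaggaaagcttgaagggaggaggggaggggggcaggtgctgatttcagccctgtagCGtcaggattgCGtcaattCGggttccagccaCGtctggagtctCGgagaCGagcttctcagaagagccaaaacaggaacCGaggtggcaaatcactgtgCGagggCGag
DCX: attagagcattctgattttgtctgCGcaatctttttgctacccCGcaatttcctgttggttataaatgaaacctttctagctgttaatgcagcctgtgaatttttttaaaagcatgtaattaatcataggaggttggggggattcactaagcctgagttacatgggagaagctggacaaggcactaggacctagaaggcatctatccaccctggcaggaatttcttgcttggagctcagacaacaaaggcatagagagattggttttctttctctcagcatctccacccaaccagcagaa

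The table matched 5 of the 7 members by symbol, with 9 promoters in all, and did not list NCAM1 and SCG2. The NDN promoter held 35 CpG dinucleotides, a ratio of observed to expected CpG of 0.95 against a median of 0.58 over the 35116 promoters of the table. PRPH held 13 (ratio 0.39), SYT4 11 (0.55) and the first DCX start 2 (0.14). The most upstream NRCAM start held 38 (0.91), while its other 2 starts held 1 and 3. The members therefore range from CpG-rich to CpG-poor. 4 motifs were searched for on both strands with overlaps counted. None of the 9 promoters held GGAAGGAA, a tandem of the ETS core, which 3.67% of all promoters held. None held TTCAGCACC or GGACAGCGC, the left and right parts of the motif of the neuronal repressor REST, which 0.376% and 0.581% held. TGACGTCA, the cyclic AMP response element, was in 1 of 9, the third NRCAM start, and in 1.85% of all promoters.

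All values below are RMA log2 expression, so a difference of 1 is a doubling, and the median of all probe-set values was 4.06. The array medians lay between 4.01 and 4.1, and the correlation within groups was 0.9911 to 0.9937. Of 12 Ewing sarcoma markers, 8 were measured, and all 8 lay above the median in each group, with CD99 at 11.4 to 12.3 and NKX2-2 at 7.55 to 8.44. RNF2, which encodes RING1B, was not analysed here, so the knockdown itself was not checked and groups are called by the hairpin in their label. The mean level of the 5 measured epithelial markers was 5.21 to 5.32 in A673 shGFP and 5.32 to 5.42 in A673 shRING1B, and 1 of the 5, KRT18, rose by 0.59 in A673 (limma adjusted p = 0.0487). The mean of the 3 measured endothelial markers was 3.91 to 4 and then 3.56 to 3.75 in the same groups, below the median of all probe sets. The muscle marker DES was at 5.27 in A673 shGFP and 6.08 in A673 shRING1B, a log2 difference of 0.80 (limma adjusted p = 0.0712), which was larger than that of KRT18 but not called, and the mean of the 3 measured muscle markers was 4.64 to 4.90 and then 4.93 to 4.99. No other glial, epithelial, immune, endothelial or muscle marker was called under the RING1B hairpin in A673 or SK-ES1, and whether these values bear on the 7 genes was not tested. In RNA from a whole culture, fewer cells with a transcript and less transcript per cell cannot be told apart.

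**Figure D1:**
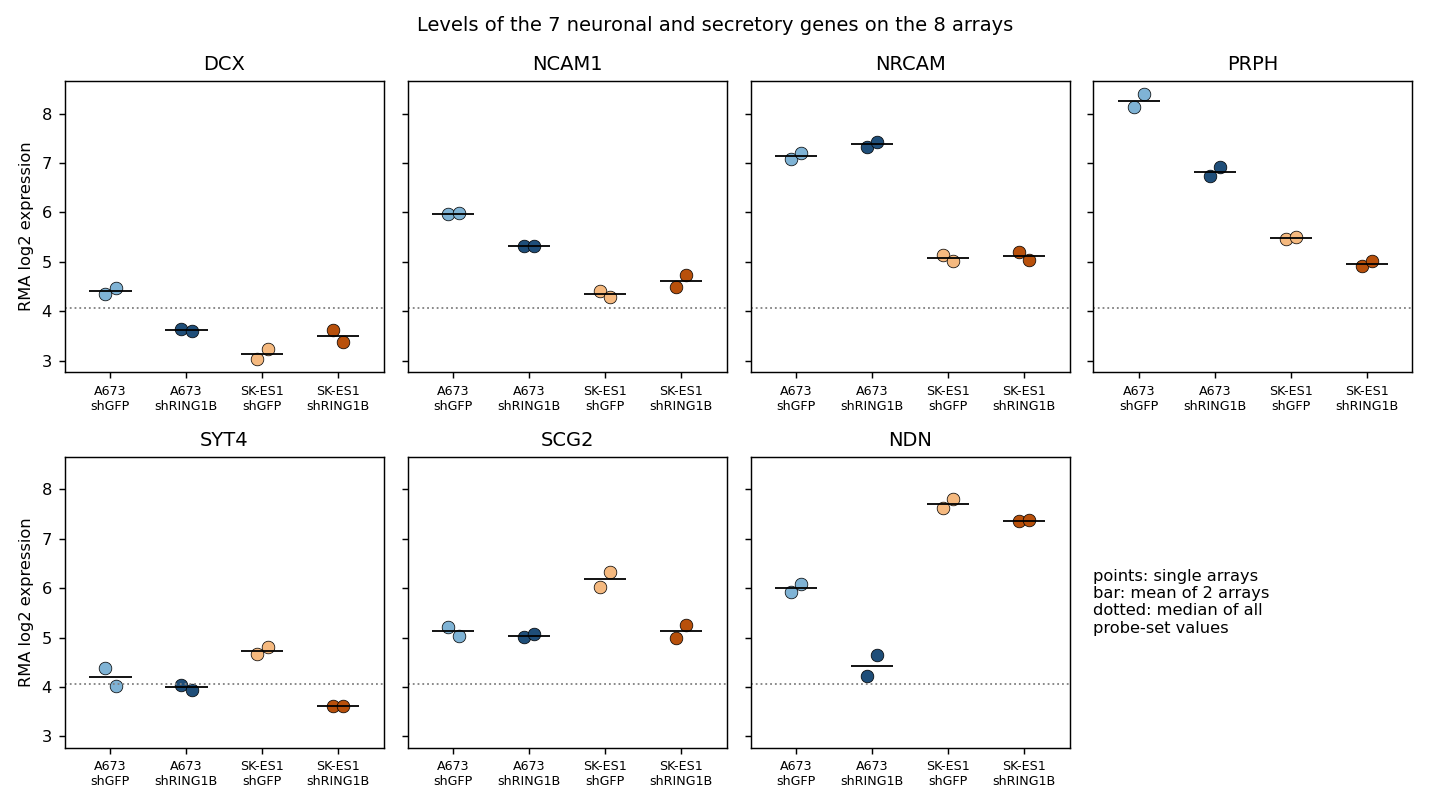
RMA log2 expression (vertical axis) of each gene on the 8 arrays, by line and hairpin. Points are single arrays, bars the mean of 2 arrays, and the dotted line the median of all probe-set values, 4.06. PRPH and NDN drop in A673 under shRING1B, and SYT4 and SCG2 drop in SK-ES1. NRCAM, PRPH, NCAM1 and NDN separate the lines under either hairpin.

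In A673, PRPH, NDN, DCX and NCAM1 were lower under the RING1B hairpin, while SYT4, SCG2 and NRCAM were not called. A gene is called when its limma p, adjusted by the Benjamini-Hochberg method over all 14884 genes, is under 0.05. The 95% intervals are for each gene alone and are not adjusted, so an interval can exclude 0 for a gene that is not called. For changes that could have led to the choice of a gene, such an interval is a description and no test. The fit called 4 of the 7 in A673, all lower, against 3.04% of all genes called lower and 3.74% called in either direction. Since the genes were listed with such calls known, the count describes the list and is no test of it. The median log2 change over the 7 was -0.652, beside 0.012 over all genes. Leaving out A673 shGFP replicate 2 reduced the 4 calls to 2, those of PRPH and NDN.

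The filament and imprinted genes showed the larger changes. PRPH stood at 8.13 and 8.39 in A673 shGFP and at 6.73 and 6.92 in A673 shRING1B. Both control arrays lay more than 1 log2 unit above both shRING1B arrays. The log2 change was -1.44 with a standard error of 0.13 (95% interval -1.73 to -1.15), a level 2.71-fold lower. NDN stood at 5.92 and 6.09 in A673 shGFP and at 4.23 and 4.64 in A673 shRING1B. The shRING1B arrays were within 0.63 of their array medians, while the control arrays were 1.87 and 2.04 above theirs. Its log2 change was -1.57 with a standard error of 0.15 (95% interval -1.91 to -1.24). Since the lower level is near the median, at low signal, no fold is given.

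The microtubule gene DCX and the adhesion gene NCAM1 changed less. DCX stood at 4.36 and 4.47 in A673 shGFP and at 3.65 and 3.61 in A673 shRING1B. Its levels moved from just above to just below the median of all probe sets, so this is a change at low signal. The log2 change was -0.78 with a standard error of 0.129 (95% interval -1.07 to -0.50). NCAM1 stood at 5.96 and 5.99 in A673 shGFP and at 5.33 and 5.32 in A673 shRING1B, and the arrays of a hairpin were nearly equal. For all 4 genes the groups do not overlap, which holds in this direction for 23.9% of all genes. Its log2 change was -0.65 with a standard error of 0.12 (95% interval -0.92 to -0.38). NCAM1 lost its call in 4 of 14 alternative fits and DCX in 1 of 13.

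The vesicle genes and the second adhesion gene were not called in A673. SYT4 stood at 4.38 and 4.03 in shGFP and at 4.04 and 3.95 in shRING1B. These arrays overlap and lie near the median of all probe sets, 4.06, at low signal. The log2 difference of SYT4 was -0.21 (95% interval -0.52 to 0.09, limma adjusted p = 0.446). SCG2 stood at 5.21 and 5.04 in shGFP and at 5.01 and 5.07 in shRING1B, again with overlap. Its log2 difference was -0.08 (95% interval -0.40 to 0.24, limma adjusted p = 0.81). NRCAM stood at 7.08 and 7.21 in shGFP and at 7.33 and 7.42 in shRING1B. Both shRING1B arrays were higher, as for 26% of all genes, with a log2 difference of 0.23 (95% interval -0.03 to 0.49, limma adjusted p = 0.332).

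In SK-ES1 the called genes were SYT4, the vesicle protein, and SCG2, the granule cargo. They fell by 1.12 and 1.05 on the log2 scale, while PRPH and NDN had smaller values on the same side and DCX and NCAM1 had values above 0 that were not called. The fit called 2 of the 7, both lower, against 0.0672% of all genes, which is 10 genes, all lower. These calls were likewise known when the genes were listed. Leaving out any single SK-ES1 array left 0 of the 2 called by limma, and leaving out any single A673 array left 1, SYT4. The log2 changes across those fits ranged from -1.19 to -1.04 for SYT4 and from -1.19 to -0.90 for SCG2.

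SYT4 stood at 4.66 and 4.81 in SK-ES1 shGFP and at 3.62 and 3.62 in SK-ES1 shRING1B. The shRING1B arrays lay below every A673 array and below the median of all probe sets. The log2 change was -1.12 with a standard error of 0.136 (95% interval -1.42 to -0.81), and since the lower level is at low signal no fold is given. SCG2 stood at 6.03 and 6.32 in shGFP and at 4.99 and 5.26 in shRING1B. Its shRING1B arrays lay just below and just above the A673 arrays, which ran from 5.01 to 5.21. The log2 change was -1.05 with a standard error of 0.142 (95% interval -1.36 to -0.73), 2.07-fold lower.

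For PRPH the SK-ES1 arrays read 5.47 and 5.50 under shGFP and 4.91 and 5.01 under shRING1B. The groups do not overlap, which holds in this direction for 19.3% of all genes, and the log2 difference was -0.53 (95% interval -0.81 to -0.24, limma adjusted p = 0.338). NDN read 7.62 and 7.80 under shGFP and 7.35 and 7.38 under shRING1B, also without overlap, with a log2 difference of -0.35 (95% interval -0.68 to -0.01, limma adjusted p = 0.665). DCX read 3.04 and 3.24 under shGFP and 3.63 and 3.38 under shRING1B, with a log2 difference of 0.37 (95% interval 0.08 to 0.65, limma adjusted p = 0.58). Here the shRING1B arrays were the higher ones, the opposite of A673, as for 17.8% of all genes in SK-ES1. All of these DCX values lay below the median of all probe sets, 4.06, at low signal. NCAM1 read 4.42 and 4.30 under shGFP and 4.50 and 4.74 under shRING1B, with a log2 difference of 0.26 (95% interval -0.01 to 0.52, limma adjusted p = 0.69). NRCAM read 5.13 and 5.02 under shGFP and 5.19 and 5.04 under shRING1B, which overlap, with a log2 difference of 0.04 (limma adjusted p = 0.972).

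**Figure D2:**
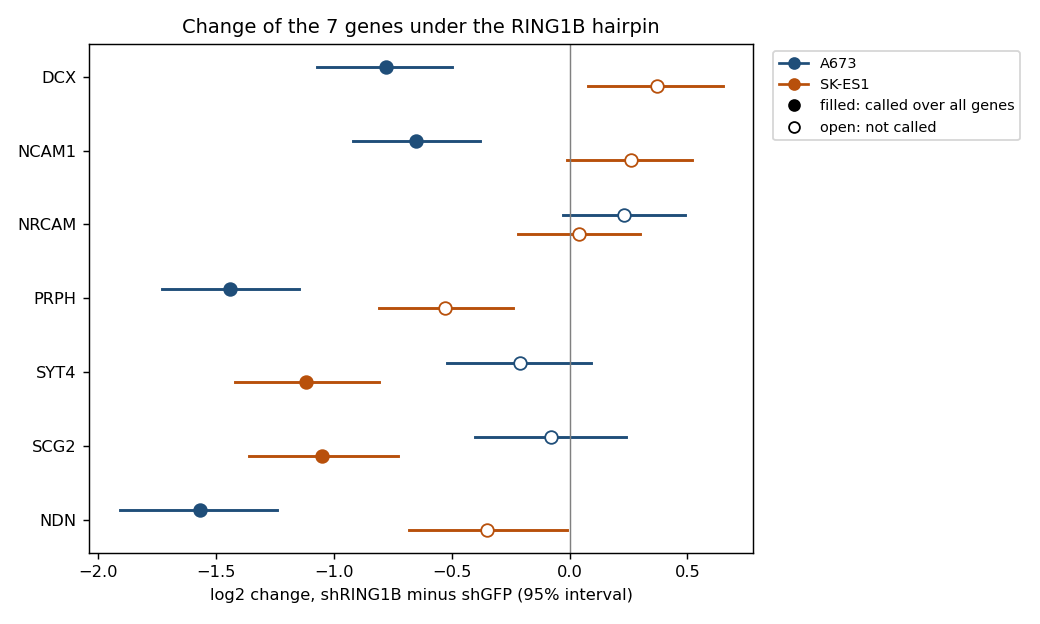
Log2 change (horizontal axis, shRING1B minus shGFP) of each gene in A673 and SK-ES1 with its unadjusted 95% interval from the limma fit. Filled points were called over all genes and open points were not. Called falls are PRPH, NDN, DCX and NCAM1 in A673 and SYT4 and SCG2 in SK-ES1, with no gene called in both lines.

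The difference between the effects (SK-ES1 minus A673) was fitted directly. It was 1.15 for DCX (95% interval 0.74 to 1.56), 0.91 for NCAM1 (0.53 to 1.29) and 1.23 for NDN (0.75 to 1.70), and these 3 of the 7 were called, all above 0, against 0.786% of all genes called and 0.625% called above 0. It was 0.91 for PRPH (0.50 to 1.32), -0.90 for SYT4 (-1.33 to -0.47) and -0.97 for SCG2 (-1.41 to -0.52), which were not called. These 6 differences contain A673 or SK-ES1 changes that could have led to the choice of the genes, so they and their intervals are descriptions without a p. For NRCAM it was -0.19 (-0.56 to 0.18, limma adjusted p = 0.678). Leaving out any single array left at most 1 of the 3 calls, 0 of them in 7 of the 8 cases, and repeating quantile normalization left 1.

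Under the control hairpin all 7 genes differed between the lines. NRCAM, PRPH, NCAM1 and DCX were lower in SK-ES1 than in A673, and NDN, SCG2 and SYT4 were higher. The differences were -2.78 for PRPH (standard error 0.13), -2.07 for NRCAM (0.118), -1.61 for NCAM1 (0.12) and -1.28 for DCX (0.129). They were 1.70 for NDN (0.15), 1.05 for SCG2 (0.142) and 0.53 for SYT4 (0.136). PRPH was thus 6.86-fold and NRCAM 4.21-fold lower, and NDN 3.26-fold higher, in SK-ES1. The fit called 7 of 7, 3 higher and 4 lower, against 30.7% of all genes (13.7% higher and 17% lower), and it is not recorded whether these values helped choose the list. SYT4 lost this call without A673 shGFP replicate 2 or SK-ES1 shGFP replicate 2. This comparison shares its shGFP arrays with both hairpin comparisons, so their values are not independent.

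The order of the 4 group levels differed from gene to gene. For PRPH the order from low to high was SK-ES1 shRING1B, SK-ES1 shGFP, A673 shRING1B and A673 shGFP, with no overlap between neighbours. For NDN it was A673 shRING1B, A673 shGFP, SK-ES1 shRING1B and SK-ES1 shGFP, again with no overlap. With 2 arrays a group such separation is common. Of all genes, 23.9% in A673 and 19.3% in SK-ES1 were lower under shRING1B without overlap. The share of all genes with 4 separate groups was not computed. NCAM1 and DCX ran from SK-ES1 shGFP over SK-ES1 shRING1B and A673 shRING1B to A673 shGFP, and for DCX the arrays of the middle groups overlapped. For NRCAM the SK-ES1 groups overlapped at the low end and A673 shRING1B was highest. For SYT4 SK-ES1 shRING1B was lowest, the A673 groups overlapped and SK-ES1 shGFP was highest. For SCG2 the lower 3 groups, with means of 5.04 to 5.13, overlapped, and SK-ES1 shGFP stood apart at 6.17 ± 0.204 (SD, n = 2).

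With these orders the gap between the lines differed by hairpin. SK-ES1 minus A673 was -1.28 under shGFP and -0.13 under shRING1B for DCX, and 1.05 and 0.08 for SCG2. For SYT4 it was 0.53 under shGFP and -0.38 under shRING1B. For NCAM1 it was -1.61 and -0.70, and for PRPH -2.78 and -1.86. For NDN it was 1.70 under shGFP and 2.93 under shRING1B, and for NRCAM -2.07 and -2.26. Thus 5 genes had a smaller absolute gap under shRING1B and 2 a larger one. DCX and NCAM1 were listed with their falls in A673 known, the line where their shGFP level was higher. SYT4 and SCG2 were listed with their falls in SK-ES1 known, where theirs was higher. Smaller gaps for these genes therefore follow in part from the choice, and the count describes the list only. Over all genes the median absolute gap was 0.237 under shGFP and 0.244 under shRING1B. The share of all genes with a smaller gap is not given here. The gaps between the lines restate the differences between the effects and were not tested.

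A wider neuronal set had 7 genes called under the RING1B hairpin in A673 and 0 by limma in SK-ES1. Of 113 other genes in 7 lists, 75 were measured. In A673, 7 of the 75 were called (9.33%, against 3.74% of all genes). Of these 6 fell (8%, against 3.04% of all genes) and 1 rose (1.33%, against 0.705%), with a median log2 change of -0.025 beside 0.012 over all genes. The 7 lists were chosen with earlier results of these data known, so their counts and shares are descriptions and no test. The adjusted p of each of their genes, which limma gave over all genes, carries the same limit. In SK-ES1 limma called 0 of the 75, against 10 of all 14884 genes, where 1095 genes had an unadjusted p under 0.05. The difference between the effects was called for 0 of the 75 by limma, where 2039 of all genes had an unadjusted p under 0.05.

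Neural adhesion was the list with most falls in A673. Of its 10 measured genes 3 fell (30%, against 3.04% of all genes) and 0 rose. ALCAM, an immunoglobulin-domain adhesion molecule, fell by 0.89 (limma adjusted p = 0.00808), CNTN1 (contactin 1) by 0.75 (0.0429) and NCAM2, the paralogue of NCAM1, by 0.62 (0.0291). Of 14 regulators of neuronal identity 2 fell (14.3%, against 3.04% of all genes). INSM1, a zinc-finger factor of neuroendocrine differentiation, fell by 0.81 (0.0113) and HAND2, a factor of sympathetic neurons, by 0.58 (0.0311). The neuronal repressor REST was at -0.14 in A673 (0.62) and 0.00 in SK-ES1 (0.999). Without A673 shGFP replicate 2 each of these 5 calls, and those of SYN2 and NES, was lost. The log2 changes were then -0.81 for ALCAM, -0.67 for INSM1, -0.8 for SYN2 and -0.46 for NCAM2. They were -0.49 for HAND2, 0.47 for NES and -0.49 for CNTN1. Over 14 alternative fits the call was lost in 9 each for CNTN1 and NES, in 7 for HAND2 and in 6 for NCAM2. It was lost in 3 for SYN2, in 2 for INSM1 and in 1 for ALCAM.

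Among 19 synaptotagmin and synaptic vesicle genes 1 fell in A673 (5.26%, against 3.04% of all genes). This was SYN2, a synapsin that tethers vesicles, which fell by 1.01 (limma adjusted p = 0.0245). In SK-ES1 the vesicle protein gene SV2B was at -0.66 (0.0941) and was the nearest to a call. Among 10 secretory granule genes, the partners of SCG2, limma called 0 in either line. Of all genes 3.74% were called in A673 and 0.0672% in SK-ES1, so 0 calls in lists of this size say little about them. CHGA and CHGB, the chromogranins, were at 0.00 and 0.02 in A673 and at 0.06 and -0.05 in SK-ES1. In that list the smallest adjusted p was 0.276 in A673 (CADPS2, at 0.23) and 0.832 in SK-ES1 (SCG5, at 0.21). Of 2 measured intermediate filament genes NES (nestin), a filament of neural progenitors, rose by 0.58 in A673 (0.0383), opposite to PRPH. Of 15 microtubule and growth cone genes limma called 0 in either line, with DPYSL4 at -0.44 in A673 (0.112) and MAP2 at -0.23 in SK-ES1 (0.725). Of 5 genes of the MAGE family and the Prader-Willi region limma called 0, with MKRN3 at -0.48 in A673 (0.0736) and MAGEL2 at -0.29 in SK-ES1 (0.711).

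**Figure D3:**
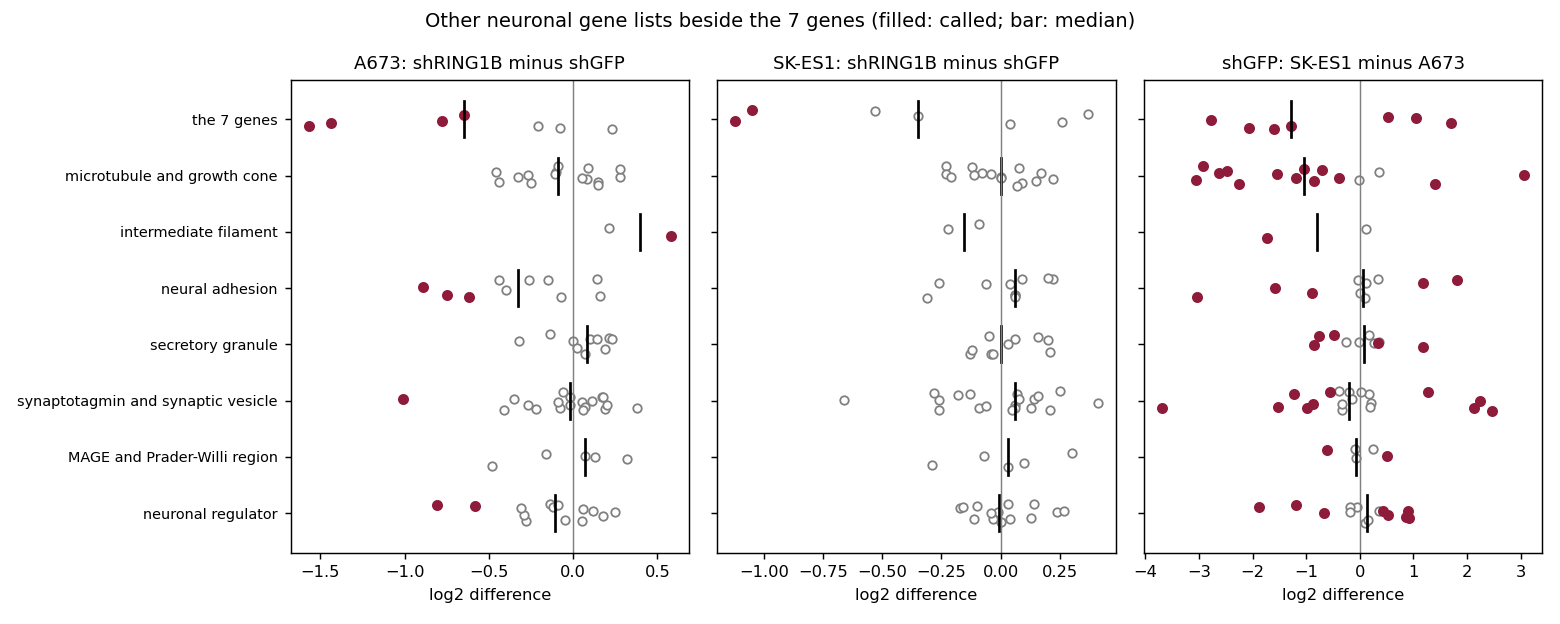
Log2 differences (horizontal axes) of the 7 genes and of the measured genes in 7 other neuronal lists, for the RING1B hairpin in A673, in SK-ES1, and for SK-ES1 minus A673 under shGFP. Each point is a gene, filled where called over all genes, and the bar is the median of a list. Outside the 7, the filled points of the A673 panel are 6 falls and 1 rise, and the SK-ES1 panel has none.

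The share of the members' chromosomal neighbours called in A673 was near that of all genes, and none was called in SK-ES1. The 2 nearest measured protein-coding genes on each side of each member, 28 in all, were taken in RefSeq's order. In A673, 1 of the 28 was called (3.57%, against 3.74% of all genes), CAPN6 beside DCX on chromosome X, and it rose by 0.97 (limma adjusted p = 0.00284) while DCX fell. The other 27 lay between -0.48 and 0.41. Beside NDN on chromosome 15, MKRN3 was at -0.48, MAGEL2 at 0.32, NPAP1 at 0.07 and UBE3A at -0.16, against -1.57 for NDN. Beside PRPH on chromosome 12, the 4 neighbours lay between -0.30 (DHH) and 0.14 (MCRS1). In SK-ES1 limma called 0 of the 28, against 0.0672% of all genes, and their values lay between -0.36 and 0.32. Beside SYT4 on chromosome 18, KIAA1328 was at -0.19, RIT2 at 0.08, SETBP1 at 0.15 and EPG5 at 0.08, and beside SCG2 on chromosome 2, MOGAT1 was at 0.06 and WDFY1 at -0.11.

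**Figure D4:**
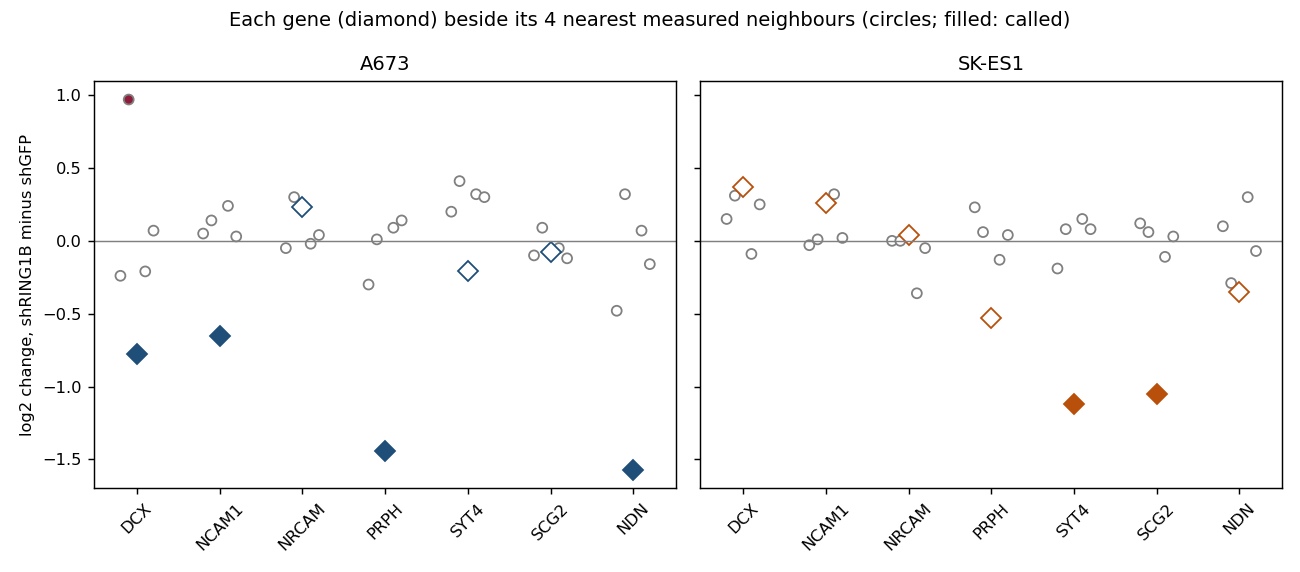
Log2 change (vertical axis, shRING1B minus shGFP) of each gene (diamond) and of its 4 nearest measured neighbours on the chromosome (circles, left to right in chromosomal order), in A673 and SK-ES1. Filled symbols were called over all genes. CAPN6, beside DCX at 0.97 in A673, is the filled circle.

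The genes whose pattern was most like each member were found by Pearson correlation over the 8 arrays, with values centred within each line, among the protein-coding genes that span at least 1 log2 unit (341 or 342 candidates). The points share 2 lines and 2 hairpins, so the coefficients describe the pattern and carry no p. For PRPH the nearest were SELENBP1 (r = 0.992), HMGN5 (0.989) and TFAP2B (0.988), and for NDN they were KIF21A (0.997), CRABP2 (0.993) and EPDR1 (0.988). SELENBP1 was at -1.28 in A673 and -0.56 in SK-ES1, close to the -1.44 and -0.53 of PRPH. For SYT4 they were BST2 (0.974), SCG2 (0.966) and LGR5 (0.964), and for SCG2 they were BST2 (0.976), SYT4 (0.966) and CXCL10 (0.949). SYT4 and SCG2 were both listed with their SK-ES1 falls known, so their likeness to each other follows in part from the choice. BST2, an interferon-induced membrane protein, was at 0.00 in A673 and -1.29 in SK-ES1. For DCX they were ZNF93 (0.982), ADCYAP1R1 (0.953) and PER3 (0.952), and for NCAM1 BCHE (0.985), EPB41L3 (0.966) and BACE2 (0.962). BCHE was at -0.91 in A673 and 0.36 in SK-ES1. For NRCAM, whose centred values span 0.33, they were IL7R (0.908), CCN2 (0.889) and HMOX1 (0.874).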

How the data were processed

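Total RNA of 8 samples was measured on Affymetrix whole-transcript arrays. Per the labels' protocols, 30 ng of each RNA was labelled, and the submitters' processing notes name RMA and limma, with versions not given in the sources used here. The deposited values are log2 expression per probe set, 48144 on each array. RMA forces a common distribution on the arrays, which hides any shift that most genes have in common. Groups come from the line and hairpin in the labels, and replicate numbers only name arrays.

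Platform annotation gave 16098 probe sets 1 gene symbol and none several, and 32046 stayed unnamed here. The probe set with the highest mean stood for each of 14884 genes. A model of 4 group means was fitted with limma 3.58.1 under R 4.3.3 over all 8 arrays (4 residual and 6 prior degrees of freedom). P-values are two-sided and adjusted over all genes.  No scanner files were used, so signal over background was not measured. Precision is limited by the number of arrays.

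The members and lists were chosen with earlier results of these data known. Named are all members, up to 4 called genes with the smallest p per list and comparison (otherwise the 1 with the smallest p), 2 neighbours on each side, 3 genes by likeness, and Ewing sarcoma markers. REST, CHGA and CHGB were named after their values were seen. The alternatives were 3 other normalization or variance settings, the comparison's own 4 arrays, genes above the median, the mean of all probe sets, and leaving out each of 8 arrays.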

Additional observations from a re-analysis of the deposited data

Results flagged for a closer look

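The difference between the effects of the RING1B hairpin in SK-ES1 and A673 was called over all genes by limma for 3 of the 7 genes. The difference (SK-ES1 minus A673, log2 scale) was 1.15 for DCX, 0.91 for NCAM1 and 1.23 for NDN. For DCX and NCAM1 the shRING1B arrays lay below the shGFP arrays in A673 and above them in SK-ES1, where neither change was called. In SK-ES1 every DCX array, at 3.04 to 3.63, lay below the median of all probe sets, 4.06, at low signal. NCAM1 lay not far above that median in SK-ES1, at 4.30 to 4.74. For NDN the shRING1B arrays lay below the shGFP arrays in both lines, with changes of -1.57 in A673 and -0.35 in SK-ES1. Leaving out any single array left at most 1 of these 3 calls, and 0 in 7 of the 8 cases. DCX and NCAM1 were listed with their A673 falls known, and what led to NDN is not recorded, so these differences are descriptions and no independent test.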

How the results depend on the processing

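No paired analysis was possible because the labels give no replicate numbers. The members' signs were the same under every alternative fit except that SCG2 in A673 was 0 without A673 shGFP replicate 1, and NRCAM in SK-ES1 was -0.04 (shRING1B replicate 1 left out) and -0.01 (shGFP replicate 2 left out). With an array left out SCG2 in A673 ranged from -0.17 to 0 and NRCAM in SK-ES1 from -0.04 to 0.12. For A673 the 557 genes called became 1052 with a trended, robust variance, 213 from its own 4 arrays and 101 to 434 with an array left out, and the 4 members called became 2 to 4. For SK-ES1 the 10 genes became 34 with the trended variance, 21 among genes above the median and 2 to 7 with an array left out, and the 2 members became 1 from its own 4 arrays and 0 to 1 with an array left out. For the difference of the effects the 117 genes became 281 with the trended variance, 185 among genes above the median and 0 to 72 with an array left out. Its 3 members became 1 with quantile normalization repeated, 5 with the trended variance or among genes above the median, and 0 to 1 with an array left out. The baseline count stayed within 1.5 times of 4572. DCX lies below the median on average and has no value in the fit of genes above it, and the fit of a comparison's own 4 arrays does not exist for the difference of the effects.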

Other observations

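Under the control hairpin the wider neuronal set was also split between the lines. Of the 75 other neuronal genes measured, 28 were lower in SK-ES1 than in A673 (37.3%, against 17% of all genes) and 16 higher (21.3%, against 13.7%). In all 58.7% were called, against 30.7% of all genes. The lists were chosen with earlier results of these data known, so these shares are descriptions and no test. The adjusted p of each of their genes carries the same limit. Microtubule and growth cone genes were mostly lower in SK-ES1, 11 of 15 (73.3%), with 2 higher (13.3%) and a median of -1.054. On the log2 scale DPYSL5 was at -3.06 (limma adjusted p = 1.05e-07), DCLK1, a relative of DCX, was at -2.92 (3.4e-07) and MAP1B at -2.48 (2.29e-07). MAPT, which encodes tau, was at 3.07 in the other direction (6.4e-08). NES was at -1.73 (4.2e-06), on the same side as PRPH.

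Over all genes 17% were called lower and 13.7% higher in SK-ES1, which are the shares to set beside the counts that follow. Of 10 neural adhesion genes 3 were lower and 2 higher in SK-ES1, with NCAM2 at -3.04 (limma adjusted p = 9.66e-08), L1CAM at -1.58 (0.00016), CNTN4 at 1.82 (3.07e-06) and CNTN1 at 1.17 (0.000481). Of 19 synaptic vesicle genes 6 were lower and 4 higher, with SYT11 at -3.69 (2.01e-07), SYN1 at 2.47 (1.19e-07), SYT17 at 2.24 (1.12e-06) and SV2B at 2.13 (3.4e-07). Of 10 secretory granule genes 3 were lower and 2 higher, among them CPE, a prohormone-processing enzyme, at 1.18 (0.000222) and PAM, the peptide-amidating enzyme, at -0.85 (0.000374). HAND2 was at -1.88 (1.53e-06) and POU4F1 at -1.19 (4.73e-05), while POU3F2 was at 0.87 (0.000251) and RCOR1 at 0.92 (0.000107), among 14 regulators with 3 lower and 5 higher. Of 5 genes of the MAGE family and the Prader-Willi region 1 was lower, MKRN3 at -0.61 (0.00477), and 1 higher, NSMCE3 at 0.51 (0.0126). Each is 20% of the list, near the 17% lower and 13.7% higher of all genes. MKRN3 was thus opposite in sign to its neighbour NDN at 1.70. The other neighbours of NDN were not called, with MAGEL2 at 0.25, NPAP1 at -0.09 and UBE3A at -0.08.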
